A study of Mus musculus with 12 samples.

Results

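Transforming growth factor beta (TGF-beta) and bone morphogenetic protein (BMP) signalling is described here by 53 genes listed by symbol, each of which matched 1 identifier among the 34866 genes in the table of mouse embryonic fibroblasts (MEFs). They fall into 7 roles: 5 TGF-beta and activin ligands, 9 BMP and GDF ligands, 5 latent binding proteins and procollagen proteases, 12 receptors and co-receptors, 7 secreted antagonists and modulators, 8 Smads, and 7 feedback and target genes. A mean of at least 1 TPM (a transcript level scaled to its length and to the library total) over the 12 libraries was reached by 46 of them, which were tested, and 7 lay under it. The study sequenced polyadenylated RNA of MEFs to ask how loss of the mitochondrial deacetylase Sirt3 changes expression in each sex.

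WT and KO MEFs of each sex gave 3 libraries per group, 12 in all. The WT cells came from 13-day embryos of 129S1/SvImJ mice and the KO cells from embryos of the same age from a Sirt3 KO mouse stock, whose allele and strain background the sources used here do not describe. Cells of all 4 groups were isolated from individual embryos, immortalized with SV40 T-antigen and collected at passage 6, 48 h after seeding. No number of lines per group is stated. The paper describes the MEFs as stable cell lines and says that cells of each genotype and sex were plated in triplicate wells. The p-values therefore measure the spread between these cultures only, not between embryos or separately derived lines. If each group is 1 line, the line cannot be told apart from its genotype and sex.

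TGF-beta and BMP ligands are secreted dimers that bring together type I and type II receptor kinases. TGF-betas and activins then signal mainly through Smad2 and Smad3, and BMPs through Smad1, Smad5 and Smad9, with Smad4 as the shared partner. TGF-betas are stored in the matrix in complexes with latent binding proteins, antagonists such as noggin and gremlin hold BMPs away from their receptors, and Smad6, Smad7 and Bambi act as brakes. In fibroblasts the TGF-beta arm is known for driving matrix production and the BMP arm for inducing the Id genes.

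Sirt3 mRNA was not lower in the libraries labelled KO, at 8.88 to 11 TPM against 6.59 to 9.07 in male WT and at 7.57 to 9.06 against 7.40 to 8.69 in female WT. KO is therefore used for libraries labelled KO, and TPM summed over a gene do not tell which parts of the transcript were made. The paper also shows a representative immunoblot of Sirt3 protein, which was not assessed here. Of 12 fibroblast markers, 11 had a mean of at least 1 TPM (Lum did not), against 1 of 7 endothelial, 0 of 5 skeletal muscle, 3 of 5 smooth muscle and myofibroblast and 1 of 5 immune markers. The summed TPM of the fibroblast list ran from 8182.5 to 9129 in male WT, 10405 to 10910 in male KO, 6724 to 6878 in female WT and 8473 to 8776 in female KO libraries. In male KO Col1a1 (3184 to 4807 TPM), Col3a1, Pdgfrb and Thy1 rose at a limma adjusted p under 0.05. Prrx1 (139.4 to 92.0 TPM) and Twist1 (123.9 to 94.9 TPM) fell there, and the other tested markers did not pass. In female KO Col1a1 (2127 to 3227 TPM), Col1a2, Col3a1, Pdgfra, Pdgfrb, Thy1, Dcn and Prrx1 (99.9 to 123.4 TPM) rose at that threshold. No tested marker of the list fell in female KO, and Vim, Fap and Twist1 did not pass. For the smooth muscle and myofibroblast list the sum was 2998 to 3087, 2909 to 3012, 3831 to 3911 and 4072 to 4186, so that KO and WT overlapped in males and not in females. Its members did not move together: in females Acta2 rose from 2032 to 2404 TPM and Tagln stood at 1699 and 1626. Cnn1 fell in females (145.5 to 87.6 TPM, limma adjusted p = 5.11e-04) and in males (104.5 to 77.3 TPM, limma adjusted p = 0.00698). The summed TPM of 6 epithelial markers was 76.2 to 77.8 in male WT, 7.90 to 8.78 in male KO, 19.9 to 23.0 in female WT and 7.40 to 10.3 in female KO libraries. 3 of the 6 had a mean of at least 1 TPM, and Cdh1 did not. That of 4 mesothelial markers ran from 28.8 to 33.6, 4.86 to 7.57, 14.5 to 17.6 and 5.58 to 6.68 in the same order, with Upk3b and Lrrn4 under 1 TPM. Of its other genes, Msln fell in both sexes (28.7 to 1.30 TPM in males and 12.6 to 5.63 in females), while Wt1 rose in males (1.46 to 4.83 TPM, log2 difference 1.25, limma adjusted p = 0.00592) and fell in females (3.34 to 0.479 TPM). For 6 chondrocyte markers the sums were 15.2 to 18.5, 48.8 to 57.7, 19.9 to 24.8 and 46.2 to 47.2, with Matn1, Comp and Col9a1 under 1 TPM. The fibroblast, epithelial, mesothelial and chondrocyte sums did not overlap between KO and WT in either sex, as with several of the genes below, and their part in those results was not tested. In bulk RNA, fewer cells of a type and less RNA per cell cannot be told apart.

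Of the 46 tested genes, 21 were called between male KO and male WT MEFs (45.7%), that is, had an adjusted p under 0.05 by limma on log2(TPM+1) with Benjamini-Hochberg adjustment over 12504 genes. 14 were higher and 7 lower in KO, where 21.6% of all tested genes were called, 10.7% higher and 10.9% lower. Between female KO and female WT MEFs 14 were called (30.4%), 8 higher and 6 lower, against 11.5% of all genes, 5.63% higher and 5.84% lower. Without female WT replicate 2 the female count was 9. The median absolute difference of the 46 genes was 0.29 on the log2 scale in males and 0.14 in females, against 0.17 and 0.13 over all tested genes.

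The sex by genotype interaction, which is the male KO minus WT difference less the female one, was called for 18 of the 46 genes (39.1%), 11 with a positive and 7 with a negative value, against 13.0% of all genes, 6.70% positive and 6.33% negative. 10 genes were called in both sexes, which is 47.6% of the male and 71.4% of the female list, where 730 of all 12504 tested genes (27.0% and 50.9% of the lists) were. 7 of them moved the same way, as did 593 of the 730 (81.2%): Tgfb3, Ltbp2, Ltbp3 and Fstl3 were higher in KO and Grem1, Id1 and Tgif1 lower. Ltbp1, Eng and Bmper were higher in male KO and lower in female KO MEFs.

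**Figure D1:**
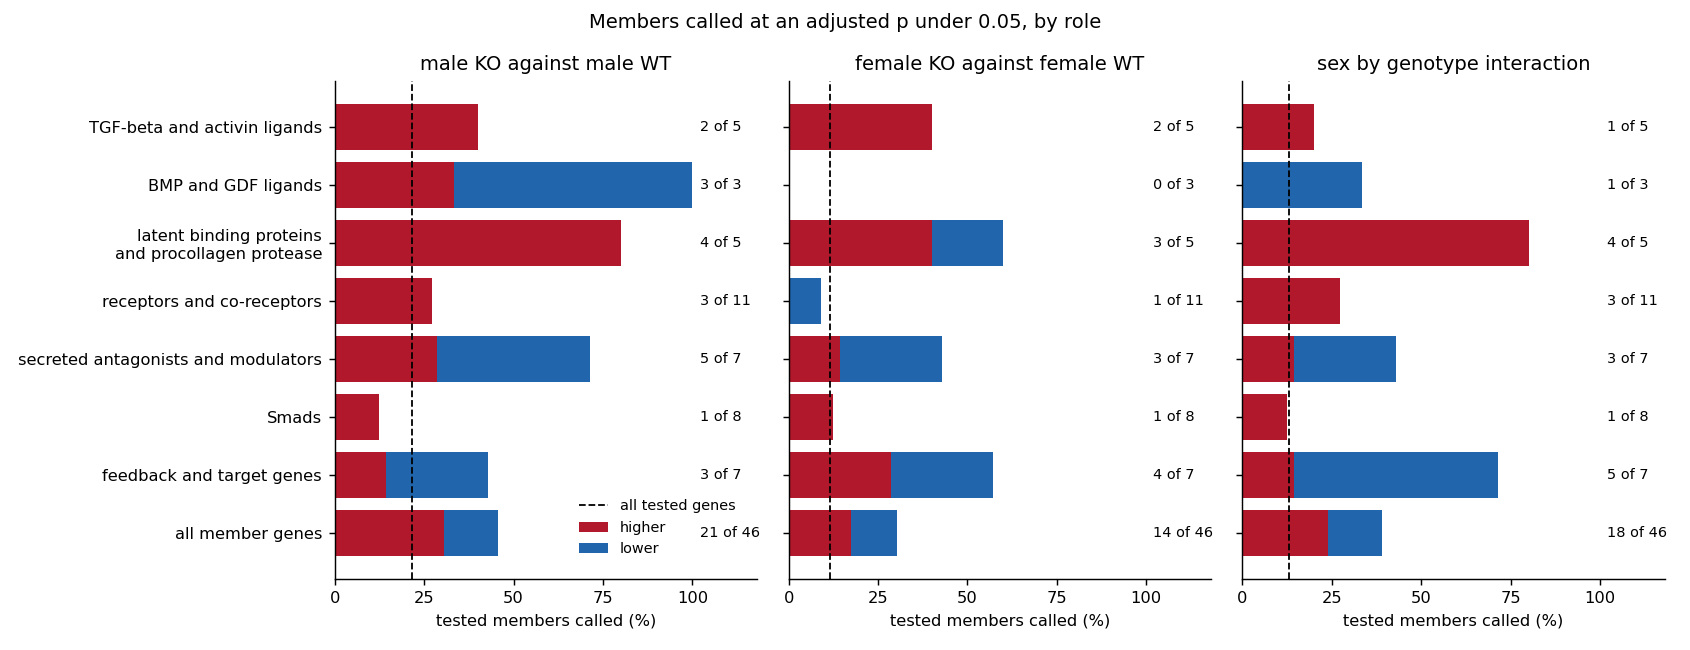
Share of the tested genes in each role that were called higher (red) or lower (blue) in male KO against male WT, female KO against female WT and the interaction, in percent of the tested genes of the role. The dashed line marks the share over all tested genes (21.6%, 11.5% and 13.0%), which latent binding proteins exceed in each panel and which Smads do not exceed in the male and interaction panels.

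**Figure D2:**
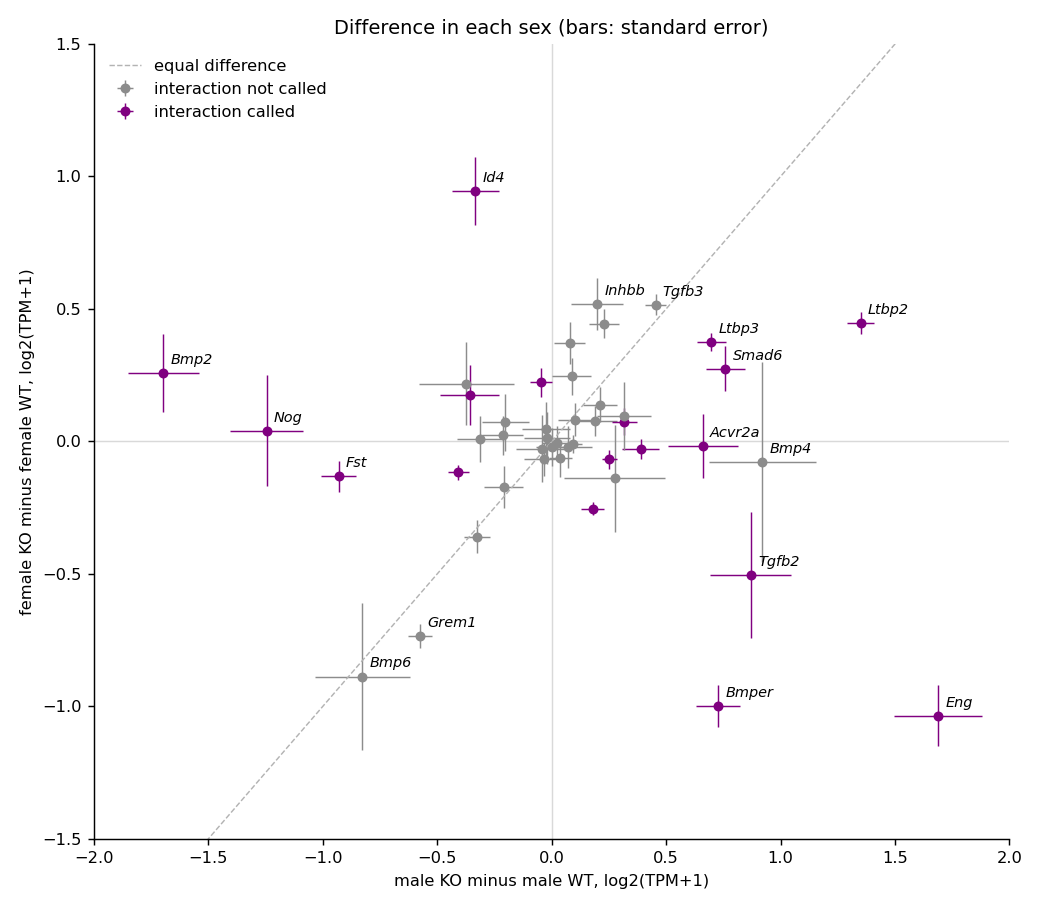
Difference between KO and WT in males (horizontal axis) and females (vertical axis) on the log2(TPM+1) scale for 46 genes, with standard errors (SE) as bars, and purple points for a called interaction. Eng and Bmper lie at positive male and negative female values, Bmp2, Nog and Fst at negative male values and between -0.13 and 0.26 in females, and Grem1 near the dashed line of equal differences.

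6 genes had a called interaction of at least 1 on the log2 scale: Tgfb2, Bmp2, Eng, Bmper, Nog and Id4. The RefSeq promoter table used here holds windows for 36 of the 53 genes and for 4 of these 6, not for Bmp2 and Nog. The 250 bases before the RefSeq start are printed 5′ to 3′ on the strand of the gene, because these 4 have the largest called interactions among the genes with a window. For Id4 that start lies 112 bases upstream of the start in the GENCODE annotation, and the Tgfb2 window holds part of an exon of the antisense gene Gm29491. Capitals mark CAGAC or its reverse complement GTCTG, the core of the Smad binding element, and GGCGCC, a GC-rich element that BMP-activated Smads bind and that reads the same on both strands. The marked letters do not overlap.
Tgfb2, GRCm38.p6, minus strand, chr1:186705990-186706239: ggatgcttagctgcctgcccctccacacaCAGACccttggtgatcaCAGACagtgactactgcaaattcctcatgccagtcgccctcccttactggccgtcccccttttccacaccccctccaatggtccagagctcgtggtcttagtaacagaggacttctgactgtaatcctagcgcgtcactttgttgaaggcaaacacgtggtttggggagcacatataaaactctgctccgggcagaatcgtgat
Eng, GRCm38.p6, plus strand, chr2:32646345-32646594: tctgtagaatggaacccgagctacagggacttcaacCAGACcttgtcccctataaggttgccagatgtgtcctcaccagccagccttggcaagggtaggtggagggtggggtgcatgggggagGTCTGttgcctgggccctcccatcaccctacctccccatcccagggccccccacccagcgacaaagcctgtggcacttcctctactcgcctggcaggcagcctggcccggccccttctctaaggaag
Bmper, GRCm38.p6, plus strand, chr9:23222826-23223075: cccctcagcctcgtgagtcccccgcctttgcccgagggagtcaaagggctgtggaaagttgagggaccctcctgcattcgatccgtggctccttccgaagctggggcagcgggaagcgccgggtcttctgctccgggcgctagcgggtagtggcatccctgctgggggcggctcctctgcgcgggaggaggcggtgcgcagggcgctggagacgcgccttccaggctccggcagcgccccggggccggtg
Id4, GRCm38.p6, plus strand, chr13:48260866-48261115: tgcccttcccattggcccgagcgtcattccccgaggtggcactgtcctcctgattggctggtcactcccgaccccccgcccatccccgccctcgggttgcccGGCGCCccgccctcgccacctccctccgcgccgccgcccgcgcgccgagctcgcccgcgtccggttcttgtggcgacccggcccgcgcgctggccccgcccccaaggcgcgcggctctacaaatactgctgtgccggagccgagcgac

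The windows of Tgfb2 and Eng each held CAGAC in 2 places, that of Id4 held GGCGCC in 1 place, and that of Bmper held neither. Over all 32851 windows of this length in the RefSeq table, 42.2% held CAGAC on either strand and 9.59% held GGCGCC. Among the 36 genes with a window, 16 (44.4%) and 8 (22.2%) held them. A match is a description of letters, not a site of binding.

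**Figure D3:**
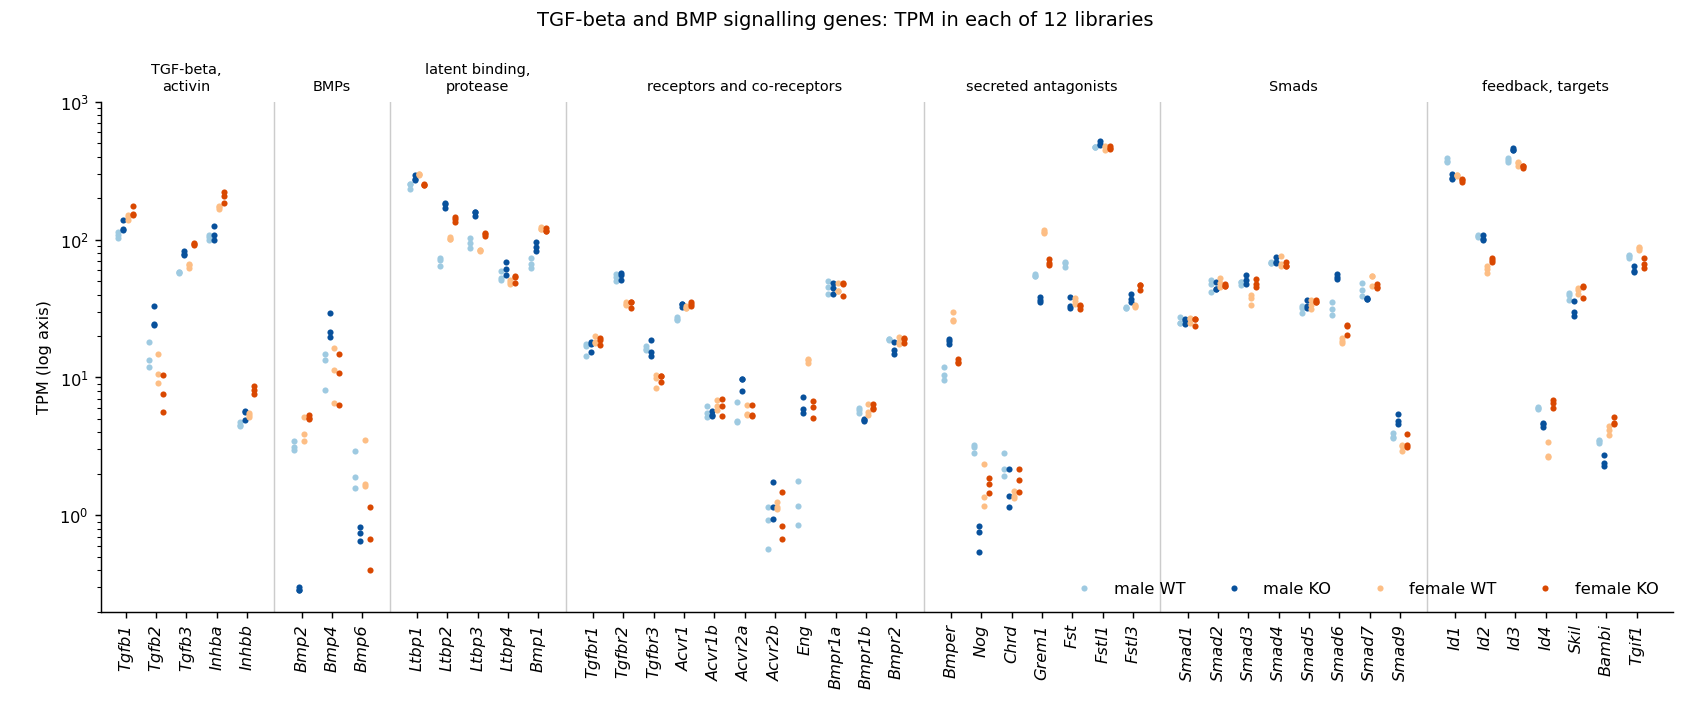
TPM (log axis) of the 46 tested genes in each of the 12 libraries, by role, with male WT in light blue, male KO in dark blue, female WT in light orange and female KO in dark orange. Fstl1, Id3 and Id1 have the highest means. The points of Smad4 overlap between all groups, those of Grem1 overlap between none, and those of Bmp2 in male KO and of Eng in male WT lie below all others of the gene.

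Among TGF-beta and activin ligands, Tgfb3 was called higher in KO in both sexes, Tgfb2 in males and Inhbb in females. Tgfb2 stood at 13.4, 17.97 and 11.8 TPM in the male WT, 24, 32.85 and 24.3 in the male KO, 9.17, 10.6 and 14.7 in the female WT and 7.59, 5.61 and 10.4 in the female KO libraries. The male groups did not overlap and the female groups did. The log2 difference was 0.87 (SE 0.18, limma adjusted p = 0.014) for males and -0.50 (SE 0.24, limma adjusted p = 0.234) for females. The interaction was 1.37 (SE 0.32, limma adjusted p = 0.015). The male call of Tgfb2 was lost without male WT replicate 1 (limma adjusted p = 0.0503) and without the filter on low values (limma adjusted p = 0.0692). Tgfb3 had a mean of 57.7 TPM for male WT and 79.5 for male KO, and 64.9 in female WT and 93.2 in female KO libraries. Its log2 differences of 0.45 (SE 0.044) and 0.52 (SE 0.039) had no called interaction (-0.06, limma adjusted p = 0.546).

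Tgfb1, the most abundant TGF-beta, ranged from 103 to 175 TPM and was called in neither sex, at 0.21 (limma adjusted p = 0.0876) for males and 0.14 (limma adjusted p = 0.223) for females. It made up 60.0% of the summed TPM of the 3 TGF-betas in male WT, 54.1% in male KO, 65.6% in female WT and 61.3% in female KO libraries. The share of Tgfb2 was 7.99% ± 1.80, 11.6% ± 1.35, 5.17% ± 1.22 and 3.00% ± 0.906 (SD, n = 3) in the same order. The sum of the 3 was 180.4 ± 3.79, 232 ± 15.4, 222 ± 6.13 and 262 ± 12.7 TPM. Each KO group was thus above the WT group of its sex, with no overlap of libraries.

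Inhba, which encodes the subunit of activin A, had the highest mean of the ligands. It was at 108.5, 105 and 98.9 TPM in the male WT, 100.2, 125.5 and 107.7 in the male KO, 177, 166 and 173 in female WT and 223, 184 and 207 in female KO libraries. All 6 female libraries lay above all 6 male libraries. The KO and WT libraries overlapped in males (0.09, limma adjusted p = 0.511), and the female difference was 0.25 (limma adjusted p = 0.0723). Inhbb, the subunit of activin B, had means of 4.57, 5.40, 5.36 and 8.11 TPM in the order male WT, KO, female WT, KO. Its female difference of 0.52 (limma adjusted p = 0.02) lost its call on leaving out any library but female KO replicate 1 (limma adjusted p up to 0.0688).

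**Figure D4:**
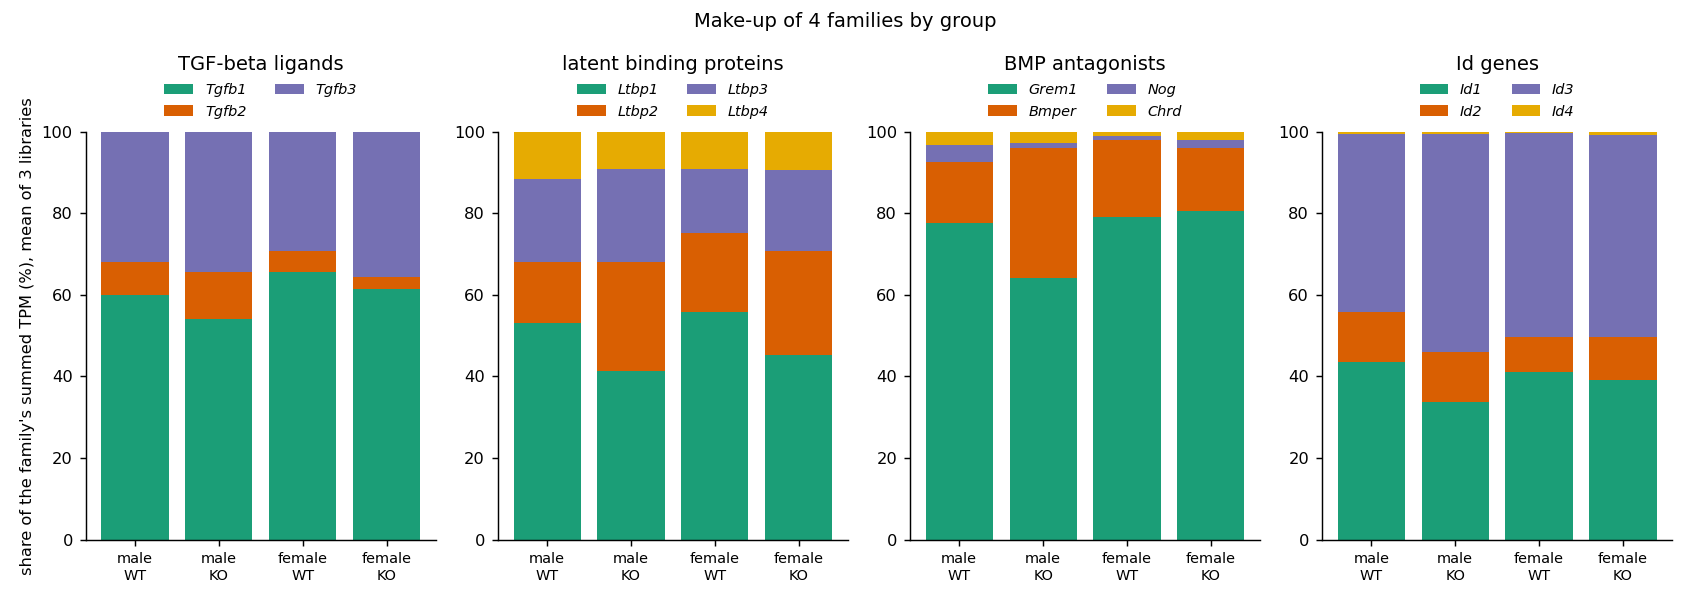
Mean share (%) of each gene in the summed TPM of 4 families, by group (male WT and KO, then female WT and KO, n = 3 each). Ltbp2 takes 14.95% of the latent binding proteins among male WT and 26.5% among male KO libraries, Bmper 14.9% and 31.8% of 4 BMP antagonists, and Id1 43.5% and 33.7% of the Id genes.

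Only 3 of the 9 BMP and GDF ligands reached a mean of 1 TPM. All 3 were called in males and none in females, against 21.6% and 11.5% of all tested genes. In females 2 of the 3 (Bmp2 and Bmp4) had overlapping KO and WT libraries. Bmp2, an inducer of bone and cartilage, stood at 3.12, 3.47 and 2.98 TPM in the male WT, 0.286, 0.288 and 0.299 in the male KO, 5.17, 3.87 and 3.48 in female WT and 5.38, 5.04 and 4.99 in female KO libraries. The male KO libraries were thus low by themselves, and the male WT mean was 10.96 times the male KO mean. Its log2 difference was -1.70 (SE 0.16, limma adjusted p = 4.66e-04) for males and 0.26 (SE 0.15, limma adjusted p = 0.313) for females. The interaction was -1.95 (SE 0.20, limma adjusted p = 4.83e-05), and no library left out took either call away. With a pseudocount of 0.1 in place of 1 the male difference was -3.07 and the interaction -3.38. TPM carry no read totals, so the counting error of so low a level is unknown.

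Bmp4 had the highest mean of the BMP ligands. It was at 8.12, 14.9 and 13.4 TPM in the male WT, 29.4, 21.3 and 19.8 in the male KO, 11.3, 16.3 and 6.48 in female WT and 14.8, 6.28 and 10.75 in female KO libraries. The male groups did not overlap, and the female groups ran through each other. The male difference was 0.92 (SE 0.23, limma adjusted p = 0.0318), the female -0.08 (SE 0.38, limma adjusted p = 0.921), and the interaction of 0.9985 was not called (limma adjusted p = 0.228). The male call was lost on leaving out any library but male WT replicate 2 (0.68 to 1.08, limma adjusted p up to 0.0945). It was also lost without the filter on low values, without the mean-variance trend, with the replicate number as a block and with all 12 libraries in 1 fit.

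Bmp6, a BMP known for its part in iron sensing, stood at 1.90, 2.91 and 1.575 TPM in the male WT, 0.821, 0.741 and 0.650 in the male KO, 1.68, 3.52 and 1.63 in female WT and 1.14, 0.403 and 0.672 in female KO libraries. KO and WT libraries did not overlap in either sex. The log2 difference was -0.83 in males (SE 0.21, limma adjusted p = 0.0295) and -0.89 in females (SE 0.28), where it did not pass (limma adjusted p = 0.0929). The male call was lost on leaving out any library but male WT replicate 3 (limma adjusted p up to 0.0812). It was also lost without the filter on low values (limma adjusted p = 0.0545) and with a replicate block. With a pseudocount of 0.1 the male difference was -1.37. Up to 224 bases of Bmp6 exons lie opposite exons of Txndc5 (331 TPM in male WT, 384 in male KO, 318 in female WT and 347 in female KO), and the sources do not state whether strand was used in counting.

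Bmp2, Bmp4 and Bmp6 together came to 17.4 ± 4.08 TPM in male WT, 24.5 ± 5.21 in male KO, 17.8 ± 6.05 in female WT and 16.5 ± 4.81 in female KO libraries (SD, n = 3). Bmp4 was 68.8% of that sum in male WT, 95.7% in male KO, 62.3% in female WT and 62.8% in female KO. The other 6 ligands stayed under 1 TPM in every library: Bmp3 reached 0.629, Bmp5 0.141, Bmp7 0.414, Gdf5 0.708, Gdf6 0.924 and Gdf10 0.0415 TPM. In a fit without the filter on low values Bmp7 was called in males (-0.34, limma adjusted p = 0.0276) and Gdf6 in females (-0.58, limma adjusted p = 0.0379).

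The latent TGF-beta binding proteins are matrix proteins, of which some but not all tether latent TGF-beta. Bmp1 is a protease that trims procollagen and also cleaves chordin. Of these 5 genes, 4 were called higher in male KO (80%). In females 2 were higher and 1 lower (60%), and the interaction was positive and called for 4 of 5 (80%). The shares of all tested genes called were 21.6%, 11.5% and 13.0%. Ltbp2 stood at 64.7, 73.8 and 70.7 TPM in the male WT, 171, 183.5 and 182.5 in the male KO, 101.3, 105.4 and 101.1 in female WT and 145, 133 and 142 in female KO libraries. No groups overlapped. The log2 difference of Ltbp2 was 1.35 (SE 0.059, limma adjusted p = 1.78e-05) for males and 0.45 (SE 0.043, limma adjusted p = 0.00148) for females, and the interaction was 0.90 (SE 0.075, limma adjusted p = 1.12e-05). Ltbp3 rose from 95.1 to 155 TPM in males and from 83.9 to 109.2 in females, a difference of 0.70 and 0.38 on the log2 scale, and the interaction reached 0.32 (limma adjusted p = 0.0146). Ltbp4 was called in neither sex (0.19 and 0.08).

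Ltbp1 had the highest mean of this role, at 235, 253 and 254 TPM in the male WT, 270.3, 293.5 and 275.5 in the male KO, 295, 302 and 298 in female WT and 253, 250.3 and 247.5 in female KO libraries. Male KO libraries lay above male WT and female KO below female WT, by small amounts. The difference of Ltbp1 was 0.18 (SE 0.048, limma adjusted p = 0.0397) for males and -0.25 (SE 0.026, limma adjusted p = 0.00188) for females. The interaction was 0.43 (SE 0.055, limma adjusted p = 2.77e-04). The male call of Ltbp1 was lost on leaving out any 1 of the 6 male libraries (limma adjusted p up to 0.102), without the filter on low values and without the mean-variance trend, while the female call and the interaction were kept. Bmp1 stood at a mean of 67.7 TPM for male WT and 88.8 for male KO (0.39, limma adjusted p = 0.0147) and at 120.3 and 117.8 in females (-0.03, limma adjusted p = 0.662). Its male call was lost without male WT replicate 3 (limma adjusted p = 0.0545) and without the filter on low values, and its interaction of 0.42 (limma adjusted p = 0.0114) was not. The 4 binding proteins summed to 466 ± 24.97 TPM in male WT, 675 ± 29.4 in male KO, 534 ± 6.30 in female WT and 552 ± 11.3 in female KO libraries.

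**Figure D5:**
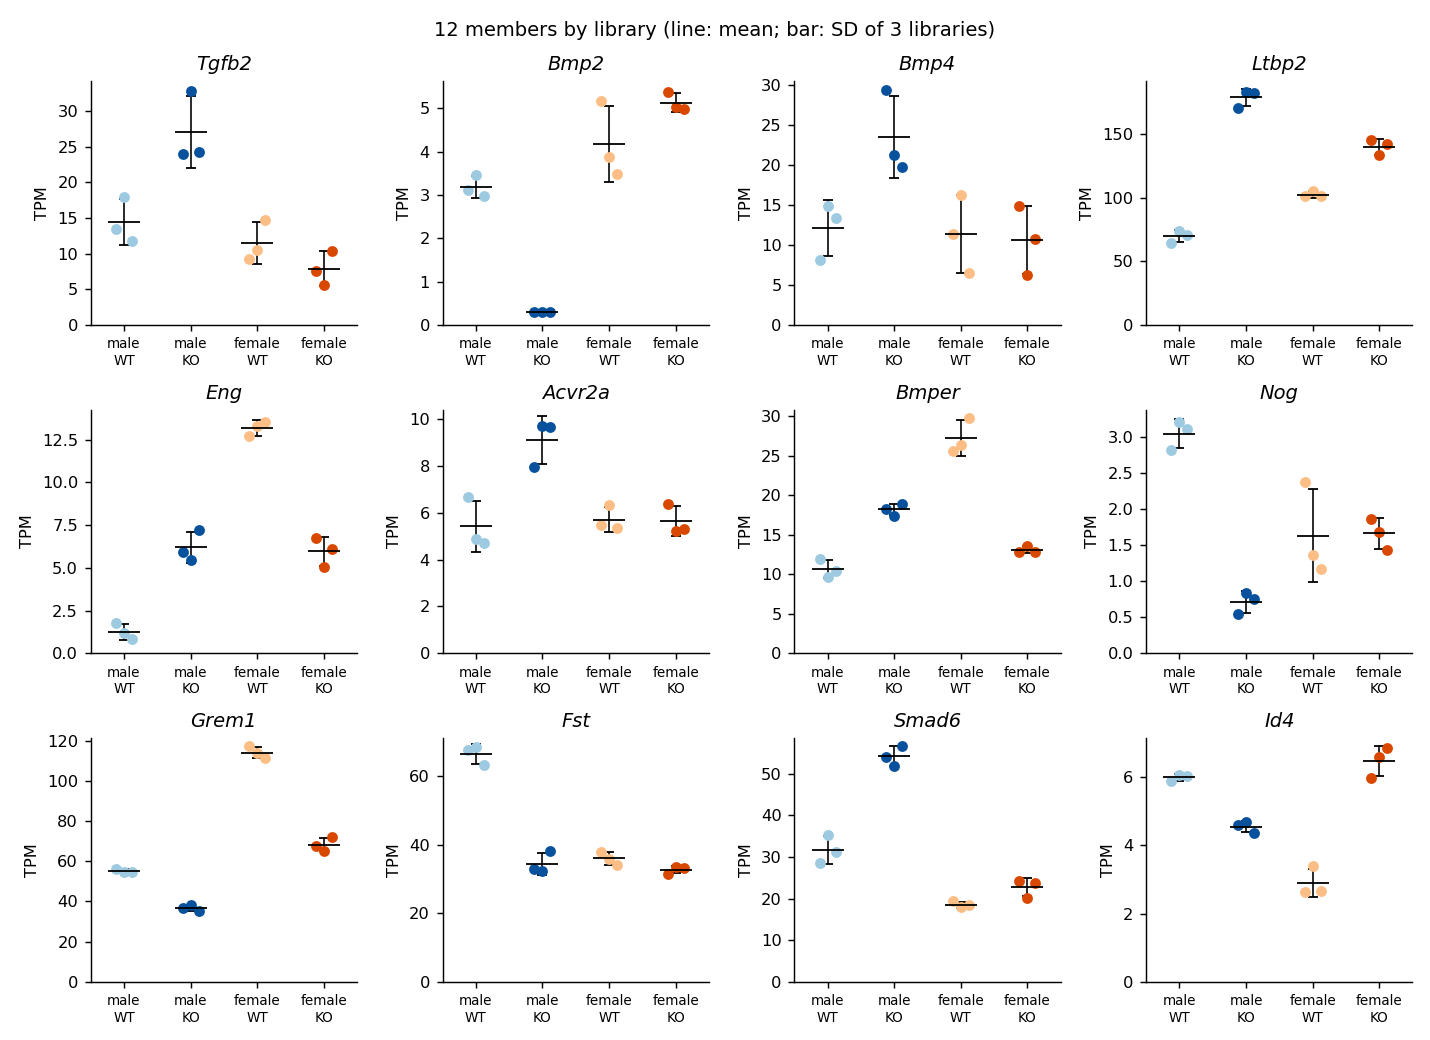
TPM of 12 genes in each library of the 4 groups of MEFs (points), with the mean (line) and SD (bar) of 3 libraries. Eng runs from 0.846 TPM in male WT to 13.6 in female WT with both KO groups between, and Fst stands above 63 TPM in male WT alone.

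Of the receptors and co-receptors, 11 of 12 were tested. 3 were called in males (27.3%), 1 in females (9.09%) and 3 in the interaction (27.3%), against 21.6%, 11.5% and 13.0% of all tested genes. Eng encodes endoglin, a co-receptor best known from endothelium that binds TGF-beta and BMP ligands. It stood at 1.77, 1.16 and 0.846 TPM in the male WT, 5.935, 5.49 and 7.23 in the male KO, 12.7, 13.3 and 13.6 in female WT and 6.76, 5.04 and 6.08 in female KO libraries. The WT groups lay at opposite ends and the KO groups overlapped between them. The log2 difference was 1.69 (SE 0.19, limma adjusted p = 0.00126) for males and -1.03 (SE 0.11, limma adjusted p = 0.00267) for females. The interaction of 2.72 (SE 0.22, limma adjusted p = 1.09e-05) had the largest size of the 46 genes. None of these 3 calls was lost on leaving out a library. The sum of 7 endothelial markers was 1.89 to 2.19 TPM in male WT, 1.45 to 1.63 in male KO, 4.76 to 5.95 in female WT and 1.98 to 2.37 in female KO. Kdr alone among the 7 had a mean of at least 1 TPM, while Pecam1, Cdh5, Tek, Emcn, Tie1 and Cldn5 lay under it. Up to 61 bases of Eng exons lie opposite exons of Fpgs (60.4 TPM in both male groups, 67.9 in female WT and 66.1 in female KO), and, among the other genes described, exons of Tgfb2, Tgfb3, Ltbp2, Bmpr1a, Fst and Id4 lie opposite non-coding or unclassified genes.

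Acvr2a, a type II receptor of activins, stood at 6.68, 4.86 and 4.73 TPM in the male WT, 7.93, 9.70 and 9.68 in the male KO, 5.45, 6.31 and 5.36 in female WT and 6.36, 5.21 and 5.32 in female KO libraries. The male KO libraries were above the other 9. The difference of Acvr2a was 0.66 (SE 0.15, limma adjusted p = 0.0217) for males and -0.02 (limma adjusted p = 0.946) for females, and the interaction reached 0.68 (SE 0.19, limma adjusted p = 0.0395). The male call was kept without male WT replicate 1 or male KO replicate 1 and lost without any other male library (limma adjusted p up to 0.0769). The interaction was kept without those same 2 libraries or female KO replicate 1 and lost without any other (limma adjusted p up to 0.0922). Both calls of Acvr2a were lost without the filter on low values and with a replicate block, and the interaction also with quantile normalization (limma adjusted p = 0.0599). Up to 446 bases of Acvr2a exons lie opposite exons of Orc4 (65.3, 56.9, 61.2 and 66.1 TPM in male WT and KO and female WT and KO).

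Acvr1, a type I receptor of BMPs and activins, had means of 26.7 TPM in male WT, 33.6 in male KO, 32.4 in female WT and 34.1 in female KO. It was called in males (0.32, limma adjusted p = 0.00812) and in the interaction (0.24, limma adjusted p = 0.0363), the second of which was lost on leaving out any library but male WT replicate 2, male KO replicate 3 or female KO replicate 1. Bmpr1a, the BMP type I receptor with the highest mean of the role, stood at 45.4, 49.9 and 40.3 TPM in the male WT, 40.1, 48.8 and 44.7 in the male KO, 48.25, 42.3 and 42.7 in female WT and 48.6, 38.7 and 47.5 in female KO libraries. All 4 groups overlapped, and the differences were -0.02 in males (SE 0.10) and 0.01 in females (SE 0.099). Tgfbr1, Acvr1b, Acvr2b, Bmpr1b and Bmpr2 were likewise called in none of the 5 comparisons made. Acvrl1, an endothelial type I receptor, lay under the filter and ran from 0.0790 to 2.09 TPM within male KO and from 0.233 to 1.65 within female KO libraries.

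Of the 7 secreted antagonists and modulators, 5 were called in males (71.4%, 2 higher and 3 lower) and 3 in females (42.9%, 1 higher and 2 lower). Over all tested genes 21.6% and 11.5% were called. Bmper encodes a secreted modulator that binds BMPs. It stood at 11.9, 9.62 and 10.4 TPM in the male WT, 18.25, 17.4 and 18.9 in the male KO, 25.5, 26.3 and 29.8 in female WT and 12.9, 13.6 and 12.8 in female KO libraries. The order of the WT groups was turned around in the KO groups. Its log2 difference was 0.73 (SE 0.097, limma adjusted p = 0.0025) for males and -0.9989 (SE 0.078, limma adjusted p = 6.48e-04) for females, and the interaction reached 1.73 (SE 0.12, limma adjusted p = 3.21e-06). No library left out took any of these calls away.

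Nog, or noggin, a BMP antagonist, stood at 2.825, 3.21 and 3.11 TPM in the male WT, 0.5395, 0.832 and 0.760 in the male KO, 2.37, 1.36 and 1.17 in female WT and 1.87, 1.69 and 1.44 in female KO libraries. Male KO libraries were below the other 9. The difference was -1.25 (SE 0.16, limma adjusted p = 0.00208) for males and 0.04 (SE 0.21, limma adjusted p = 0.927) for females, and the interaction was -1.29 (SE 0.26, limma adjusted p = 0.0065). With a pseudocount of 0.1 the male difference was -1.97 and the interaction -2.05. Chrd, chordin, another BMP antagonist, was at 0.976% to 3.24% of the sum of Grem1, Bmper, Nog and Chrd by group mean and was called in no comparison.

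Grem1, gremlin, which binds and blocks BMPs, was the most abundant of these antagonists. It stood at 56.1, 54.5 and 54.9 TPM in the male WT, 36.6, 38.4 and 35.2 in the male KO, 117.3, 113.8 and 111.4 in female WT and 67.7, 65.4 and 71.85 in female KO libraries. KO was lower in each sex and males were lower within each genotype. The difference of Grem1 was -0.58 (SE 0.053, limma adjusted p = 4.66e-04) for males and -0.73 (SE 0.046, limma adjusted p = 2.92e-04) for females, and the interaction of 0.16 was not called (limma adjusted p = 0.164). The sum of the 4 antagonists was 71.2 ± 1.61 TPM in male WT, 57.2 ± 1.41 in male KO, 144 ± 1.91 in female WT and 84.9 ± 2.59 in female KO libraries (SD, n = 3).

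Fst, follistatin, which binds activins, stood at 67.4, 68.5 and 63.2 TPM in the male WT, 33.0, 32.2 and 38.1 in the male KO, 37.8, 35.8 and 34.1 in female WT and 31.45, 33.5 and 33.1 in female KO libraries. The male WT libraries were high by themselves. The difference was -0.93 (SE 0.076, limma adjusted p = 2.64e-04) for males and -0.13 (SE 0.058, limma adjusted p = 0.204) for females, and the interaction was -0.80 (SE 0.096, limma adjusted p = 1.92e-04). No library left out took these calls away. Fstl3, a relative of follistatin, was higher in KO in males (32.1 and 37.8 TPM, 0.23, limma adjusted p = 0.0476) and females (33.1 and 45.5 TPM, 0.44, limma adjusted p = 0.00372). The male call of Fstl3 was lost on leaving out any library but male KO replicate 1 (limma adjusted p up to 0.134). That call was also lost without the filter on low values, without the trend and with a replicate block. Fstl1, which encodes a secreted glycoprotein, had the highest TPM of the 53 genes, at 471, 468 and 470.4 in male WT, 484, 523 and 499 in male KO, 448, 482.5 and 472 in female WT and 456, 461.5 and 475 in female KO libraries. It was called in no comparison (0.09 in males and -0.01 in females).

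Smads had the lowest median fold between the highest and lowest group mean of the 7 roles (1.26, against 1.25 over all tested genes). In males, in females and in the interaction 1 of 8 was called (12.5% each), against 21.6%, 11.5% and 13.0% of all tested genes. Smad1, Smad2, Smad4, Smad5 and Smad9 were called in none of the 5 comparisons. Smad4 had the highest mean, at 69.4, 67.8 and 68.3 TPM in the male WT, 74.5, 68.6 and 68.0 in the male KO, 66.2, 64.7 and 76.0 in female WT and 68.8, 64.4 and 64.4 in female KO libraries. Its groups overlapped, with a difference of 0.04 in males (SE 0.051) and -0.06 in females (SE 0.069). The group means of Smad1 differed at most 1.02 times and those of Smad6 2.92 times.

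Smad6, an inhibitory Smad of the BMP arm, stood at 28.6, 35.3 and 31.2 TPM in the male WT, 54.0, 51.8 and 56.6 in the male KO, 19.3, 17.9 and 18.4 in female WT and 24.1, 20.2 and 23.7 in female KO libraries. KO libraries were above WT in each sex without overlap. The difference of Smad6 was 0.76 in males (SE 0.084, limma adjusted p = 0.00107) and 0.27 in females (SE 0.084), where it did not pass (limma adjusted p = 0.087). The interaction was 0.48 (SE 0.12, limma adjusted p = 0.0209), and was lost without male KO replicate 3 (limma adjusted p = 0.0538) or female WT replicate 1 (limma adjusted p = 0.0513). Smad7, the other inhibitory Smad, was called in neither sex (-0.21 and -0.17). Smad3 was called in females alone, from 37.0 TPM in WT to 48.1 in KO (0.37, limma adjusted p = 0.0309). That call was lost on leaving out any library but female WT replicate 3 (limma adjusted p up to 0.0907), and no interaction was called (limma adjusted p = 0.106).

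Of the 7 feedback and target genes, 3 were called in males (42.9%), 4 in females (57.1%) and 5 in the interaction (71.4%). Among all tested genes 21.6%, 11.5% and 13.0% were called. The Id genes encode inhibitors of basic helix-loop-helix factors. Id3, the highest of the role, stood at 390, 376 and 369 TPM in the male WT, 447, 445 and 460 in the male KO, 365, 363 and 341.5 in female WT and 345, 330.3 and 345 in female KO libraries. Male KO libraries were above the other 9. The difference of Id3 was 0.25 (SE 0.034, limma adjusted p = 0.00259) for males and -0.07 (SE 0.036, limma adjusted p = 0.291) for females, and the interaction reached 0.32 (SE 0.049, limma adjusted p = 0.00109). Id1 moved the other way in males, from 377 to 284 TPM (-0.41, limma adjusted p = 0.00103), and from 293 to 270 TPM in females (-0.12, limma adjusted p = 0.0456). The female call of Id1 was lost on leaving out any 1 library (limma adjusted p up to 0.136) and with median-of-ratios scaling. That call was also lost without the filter on low values, without the trend, with a replicate block and with all 12 libraries in 1 fit. The interaction of -0.29 (limma adjusted p = 0.00332) was kept. Thus Id1 and Id3 were 43.5% ± 1.05 and 43.6% ± 1.11 of the summed Id TPM of male WT and 33.7% ± 0.593 and 53.5% ± 0.717 in male KO libraries, while the sum stood at 868 ± 7.57 and 842 ± 26.5 TPM.

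Id4 was low, at 5.87, 6.07 and 6.04 TPM in the male WT, 4.597, 4.69 and 4.36 in the male KO, 2.63, 3.38 and 2.67 in female WT and 5.99, 6.58 and 6.87 in female KO libraries. The KO libraries were below WT in males and above it in females, with no overlap. The difference of Id4 was 0.94 in females (SE 0.13, limma adjusted p = 0.00621) and -0.33 in males, where it did not pass (SE 0.10, limma adjusted p = 0.0607). The interaction was -1.28 (SE 0.15, limma adjusted p = 1.5e-04). Id2 rose in females from 60.9 to 71.3 TPM (0.22, limma adjusted p = 0.0465), a call lost on leaving out any 1 library (limma adjusted p up to 0.127). Its interaction of -0.27 (limma adjusted p = 0.0286) was kept only without male WT replicate 1, male KO replicate 3, female WT replicate 1 or female KO replicate 2.

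Bambi, a decoy receptor without a kinase, stood at 3.34, 3.52 and 3.46 TPM in the male WT, 2.715, 2.28 and 2.41 in the male KO, 4.46, 4.13 and 3.84 in female WT and 4.59, 5.135 and 4.70 in female KO libraries. It was called in neither sex (-0.36, limma adjusted p = 0.0959, and 0.18, limma adjusted p = 0.367). The interaction of -0.53 (SE 0.15, limma adjusted p = 0.0393) was kept without male KO replicate 1 and lost without any other library (limma adjusted p up to 0.093). It was also lost without the filter on low values and with a replicate block. Tgif1, a corepressor of Smads, fell in both sexes, by 0.32 on the log2 scale in males (76.2 and 60.7 TPM) and by 0.36 in females (86.8 and 67.5 TPM). Its female call was lost without female WT replicate 2 or 3 or female KO replicate 2 (limma adjusted p up to 0.0565). Skil, another corepressor, was called in neither (-0.31 in males, limma adjusted p = 0.0681, against 0.01 in females).

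The sexes were also compared within each genotype. Between male WT and female WT MEFs 19 of the 46 genes were called (41.3%), 8 higher and 11 lower in males, against 12.8% of all genes, 6.26% higher and 6.56% lower. The largest difference was that of Eng (-2.67, SE 0.17, limma adjusted p = 1.59e-04), followed by Bmper (-1.28) and Grem1 (-1.04). Fst (0.87), Id4 (0.85), Id2 (0.79) and Smad6 (0.74) were higher in male WT. Between male KO and female KO MEFs 25 were called (54.3%), 12 higher and 13 lower in males, against 16.6% of all genes, 8.17% higher and 8.39% lower, and without female KO replicate 3 the count was 16. There Bmp2 (-2.25), Grem1 (-0.88), Inhba (-0.88) and Bambi (-0.74) were lower in males, and Tgfb2 (1.68), Smad6 (1.22) and Bmp4 (1.13) were higher. The Bmp4 call was kept only without female KO replicate 1 and lost without any other of these 6 libraries (limma adjusted p up to 0.119).

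Tgfbr2, the type II receptor of TGF-beta, and Tgfbr3, its co-receptor betaglycan, were called between the sexes in both genotypes and between the genotypes in neither sex. Tgfbr2 stood at 53.5 and 54.4 TPM in male WT and KO and at 34.3 and 34.2 in female WT and KO, a sex difference of 0.62 among WT (limma adjusted p = 0.00112) and 0.66 among KO (limma adjusted p = 9.28e-04). Its KO differences were 0.02 (limma adjusted p = 0.835) for males and -0.01 (limma adjusted p = 0.967) for females. Tgfbr3 had means of 16.3, 16.1, 9.60 and 9.91 TPM, with sex differences of 0.71 (limma adjusted p = 0.00387) and 0.64 (limma adjusted p = 0.00963). Inhba was lower in males by -0.72 among WT and -0.88 among KO on the log2 scale, and Tgfb1 by -0.42 and -0.35. The KO call of Tgfb1 was lost on leaving out any library but male KO replicate 2 (limma adjusted p up to 0.1).

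Beyond the 53, 119 other genes of the pathway were listed, of which 90 were tested. 44 were called in males (48.9%, 26 higher and 18 lower), 34 in females (37.8%, 21 higher and 13 lower) and 29 in the interaction (32.2%). The shares of all tested genes were 21.6%, 11.5% and 13.0%. Of 30 genes known as TGF-beta targets, 17 were called in males (56.7%, 13 higher and 4 lower) and 17 in females (56.7%, 11 higher and 6 lower). Postn, periostin, a matrix protein, rose from 123 to 555 TPM in males (2.17, limma adjusted p = 1.01e-06) and from 145 to 639 in females (2.13, limma adjusted p = 4.4e-07). Tgfbi, a matrix adaptor, rose from 30.4 to 168 TPM in males (2.43) and from 18.5 to 27.5 in females (0.55), and the interaction reached 1.88 (limma adjusted p = 1.41e-06). Igfbp3, a binding protein of insulin-like growth factors, fell from 38.4 to 8.23 TPM in males (-2.10) and stood at 10.2 and 7.87 in females (-0.35, limma adjusted p = 0.233). The targets thus moved in both directions.

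Of 21 genes known as BMP targets, 15 were tested. 9 were called in males (60%, 4 higher and 5 lower) and 8 in females (53.3%, 4 higher and 4 lower), against 21.6% and 11.5% of all tested genes. Hand2, a factor of limb and heart patterning, fell from 17.5 to 3.79 TPM in males (-1.95, limma adjusted p = 4.01e-05) and rose from 3.29 to 10.1 in females (1.38, limma adjusted p = 7.7e-04), so that its interaction was -3.33 (limma adjusted p = 1.35e-07). Msx1, a homeobox factor, did likewise, from 6.28 to 1.85 TPM in males and from 2.54 to 6.28 in females, with an interaction of -2.42. Tbx3, a T-box factor, rose in both sexes (1.73 and 1.04), and Gata3 fell in both (-1.20 and -2.07). Among other ligands, antagonists and receptors, Lrrc32, which presents latent TGF-beta at the cell surface, rose from 42.2 to 116 TPM in males and stood at 35.5 and 29.9 in females (-0.24, limma adjusted p = 0.108). The interaction of Lrrc32 was 1.67 (limma adjusted p = 6.94e-06). Of 19 tested intracellular regulators, 5 were called in males (26.3%) and 1 in females (5.26%), against the 21.6% and 11.5% of all genes.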

How the data were processed

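RNA of 12 MEF cultures was sequenced, and the authors quantified reads with Salmon (1.10.1 in the submitters' processing notes) against GRCm38 and deposited TPM values. TPM carry no read totals, so depth is unknown and no counting error is given. No column of values was left unused. Symbols came from the GENCODE annotation of GRCm38 (99.4% of identifiers matched) and promoter windows from RefSeq (GRCm38.p6). Tests used limma 3.58.1 in R 4.3.3 on log2(TPM+1) for the 12504 genes whose mean reached 1 TPM, with the trend of variance on mean. Fits of 6 libraries compared 2 groups, and the interaction was fitted over 12. Calls were made at a Benjamini-Hochberg adjusted p under 0.05 without a fold-change threshold. Values on this scale understate changes of low genes. The code was tested on simulated data.

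The 53 genes and the other lists were chosen with earlier results of these data known. Values in every library are given for genes with a called interaction of at least 0.5, a called male or female difference of at least 0.7, or the highest mean of their role, and other pathway genes are named from a called difference of at least 1. Alternatives were another pseudocount, other filters and scalings, no trend, a replicate block, all libraries in 1 fit, and leaving out each library. Some results on other genes are not reported here.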

Additional observations from a re-analysis of the deposited data

Results flagged for a closer look

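For 18 of the 46 tested genes the difference between KO and WT itself differed between the sexes by limma's interaction test with Benjamini-Hochberg adjustment. On the log2(TPM+1) scale, male minus female, the value was 1.37 for Tgfb2, 0.43 for Ltbp1, 0.90 for Ltbp2, 0.32 for Ltbp3, 0.42 for Bmp1, 0.24 for Acvr1, 0.68 for Acvr2a, 2.72 for Eng, 1.73 for Bmper, 0.48 for Smad6 and 0.32 for Id3. It was -1.95 for Bmp2, -1.29 for Nog, -0.80 for Fst, -0.29 for Id1, -0.27 for Id2, -1.28 for Id4 and -0.53 for Bambi. 13 of the 18 calls were kept under each alternative run, and those of Acvr1, Acvr2a, Smad6, Id2 and Bambi were lost on leaving out at least 1 library.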

How the results depend on the processing

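Over 5 comparisons 97 calls were made among the 46 tested genes, of which 67 were kept under each alternative run, and none changed direction under any. Leaving out 1 library gave 16 to 18 called genes in males against 21, 9 to 11 in females against 14, 14 to 16 in the interaction against 18, 15 to 18 between the WT sexes against 19 and 16 to 19 between the KO sexes against 25. The low ends of 9 and 16 came without female WT replicate 2 and without female KO replicate 3. Under the other alternatives the counts stayed within 1.5 times. Replicate numbers are shared by the groups without a stated pairing, and deviations of same-numbered libraries correlated at -0.057 to 0.078 across genes. A replicate block gave 17, 10, 15, 16 and 17 called genes in the order above. Without the filter on low values the counts were 15, 11, 16, 19 and 19. A pseudocount of 0.1 moved the male differences of Bmp2, Bmp6 and Nog to -3.07, -1.37 and -1.97, their interactions where called (Bmp2 and Nog) to -3.38 and -2.05, and the KO sex differences of Bmp2 and Nog to -3.74 and -1.13, where the call of Nog was lost. The median difference over all tested genes lay between -0.023 and 0.005 in the 5 comparisons, and between -0.016 and -0.001 under the other scalings. Unknown depth limits what can be said of the 7 genes under 1 TPM.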
